A study of Danio rerio with 56 samples.

Results

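The 125 transcripts described here were present in unfertilised zebrafish eggs by mean level, though not each in every library. They stood at least 8-fold higher by mean in embryos at 10 hours post fertilisation (hpf). They were chosen on TPM, a length-corrected share of a library that sums to the same total in each library. A transcript entered when the mean of the 4 control egg libraries (E) was at least 5 TPM and the mean of the 4 control embryo libraries (M) was at least 8 times E. The 200 of highest M were to be kept, and 125 met the rule, so none was left out by that limit. They are 0.831% of the 15048 transcripts with E of at least 5 TPM and 0.219% of the 57192 transcripts in the files.

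A fish egg carries messenger RNA that the mother deposits during oogenesis, and this store runs the first cell divisions while the embryo's own genome is silent. At the maternal-to-zygotic transition much of the store is degraded and zygotic transcription begins. Transcripts that are both stored and made again by the embryo form a maternal-zygotic class, and total RNA at a single stage does not separate the stored copies from the copies made by the embryo.

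The study asked what BaP (benzo[a]pyrene), a combustion product that binds the aryl hydrocarbon receptor, does to the eggs and offspring of exposed parents. Adult zebrafish of the 5D strain, 120 days old, ate food treated with acetone only (control) or food with BaP for 21 days, at a dose of 25 µg for each gram of fish, or 1250 µg in each gram of food. Each of 6 groups had 4 RNA libraries. The egg groups came from control and from BaP-fed females. The embryo groups, at 10 hpf, were those of control parents, of a BaP-fed mother and control father, of a control mother and BaP-fed father, and of BaP-fed parents on both sides. The last group is labelled only as BaP at 10 hpf and was read as both parents exposed, because the single-parent crosses have labels of their own. The 5D strain is all these groups share in genotype, and no transgene is named.

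Total RNA of whole eggs or embryos was depleted of ribosomal RNA and sequenced in read pairs. Library totals, in estimated counts, were 36548517 to 55044612 for the 8 egg samples and 26010776 to 38130629 for the 16 embryo samples. The labels do not tie a replicate to a tank or spawning, so each p-value measures the spread between libraries, which may be technical. The files list Ensembl transcript identifiers without gene names, and 0 of the 57192 matched the reference tables in use here. No gene name, function or sequence is given for that reason, and the labelled stages could not be checked against marker genes. In whole eggs and embryos, fewer cells of a type and less RNA per cell cannot be told apart.

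The 125 transcripts moved from modest abundance in eggs to the upper end of the embryo's range. E had a median of 12.9 TPM, with 49 transcripts between 5 and 10 TPM and a highest value of 1171 TPM. M ran from 44.5 to 9885 TPM with a median of 252 TPM, and 17 transcripts were at 1000 TPM or more. The median rank by mean TPM was 10293 in control eggs and 550 in control embryos. Of the 500 most abundant transcripts, 2 in control eggs and 56 in control embryos belonged to the set. The ratio M/E had a median of 14.0 and an upper quartile of 23.8, with 73 transcripts between 8 and 16, 29 between 16 and 32, and 23 above that. These values chose the set and are a description without a test. For comparison, all 15048 transcripts with E of at least 5 TPM had a median M/E of 0.430 and a 90th percentile of 1.91.

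**Figure D1:**
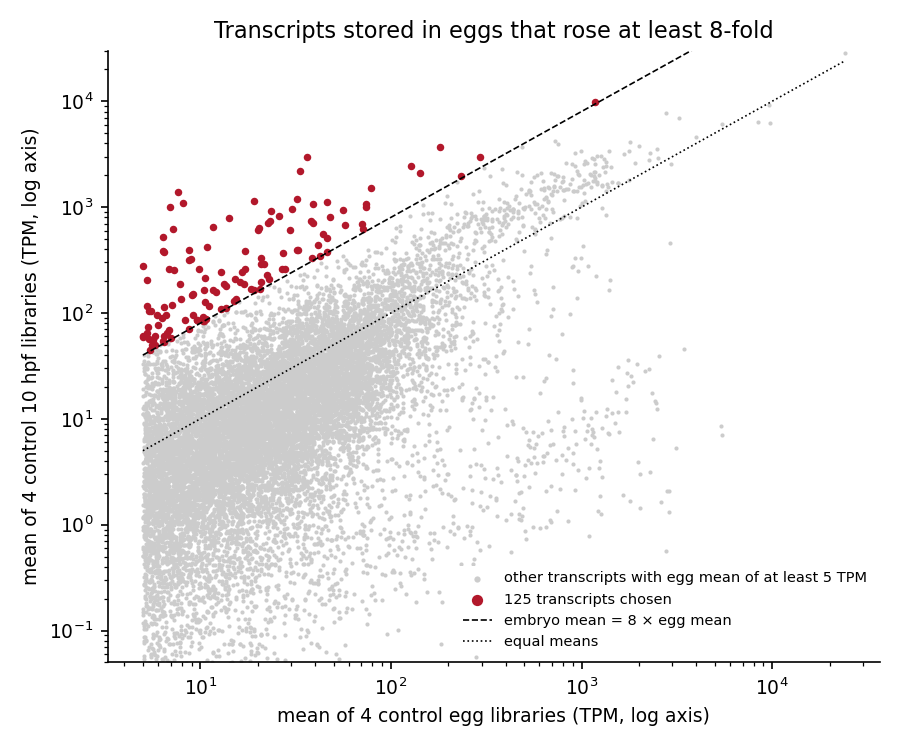
Mean TPM in 4 control egg libraries (horizontal, log axis) and in 4 control 10 hpf libraries (vertical, log axis) for transcripts with an egg mean of at least 5 TPM; 310 transcripts with an embryo mean under 0.05 TPM lie below the axis. The 125 chosen transcripts (red) lie on or above the dashed line of an 8-fold rise, and most of the others lie below the dotted line of equal means.

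The limits of the rule cut through a continuous range. ENSDART00000052061.6 lay just inside the ratio limit (E 10.4 TPM, M 83.4 TPM), and ENSDART00000182243.1 lay just outside at a ratio of 7.99 (E 22.9 TPM, M 183 TPM). ENSDART00000140696.3 lay just inside the egg limit at 5.00 TPM and had an M/E of 11.9. ENSDART00000155282.2, at 4.89 TPM, lay just outside it with an M/E of 26.4.

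The most abundant member in embryos was ENSDART00000023156.7, a transcript of 1745 bases. It stood at 1189, 1117, 1174 and 1205 TPM in the control eggs and at 9617, 9777, 10693 and 9453 TPM in the control embryos. It was also the most abundant member in eggs, at rank 101 there and rank 2 in embryos, so it passed the ratio limit with an M/E of only 8.44. ENSDART00000028885.9, next by M, had 172, 182, 172 and 196 TPM in control eggs and 3357, 3698, 3728 and 3953 TPM in control embryos. Both had narrow spreads at either stage, with no overlap between stages.

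The 2 highest ratios came from transcripts close to the egg limit, though over the set E and M/E were almost unrelated (Spearman's correlation -0.058). ENSDART00000127667.3 went from 9.05, 5.30, 7.63 and 8.60 TPM in control eggs to 1385, 1314, 1389 and 1417 TPM in control embryos, an M/E of 180. ENSDART00000139865.2 had 5.59, 1.55, 18.6 and 1.99 TPM in control eggs and 1232, 1011, 1107 and 645 TPM in control embryos. Its egg mean of 6.93 TPM passed the limit through replicate 3, the highest of the 4. Egg values of the set were loose in general. The median coefficient of variation between libraries was 23.8% in control eggs, which took part in choosing the set, and 19.4% in BaP eggs, which did not. In the embryo groups it was from 8.81% to 11.1%. For all transcripts of at least 5 TPM it was 13.7% in control eggs, 13.9% in BaP eggs and from 10.3% to 14.3% in the embryo groups.

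The rise was then measured in libraries that had no part in choosing the set. Embryos of exposed parents on both sides were called above eggs of BaP-fed females for 124 of the 125 transcripts. The set's median log2 fold change was 4.06. Embryos of exposed mothers were called above the same eggs for 124, with a median of 4.12. All 125 lay above 0 in both comparisons. The edgeR quasi-likelihood test was used on counts scaled by trimmed mean of M values (TMM). A call was a Benjamini-Hochberg adjusted p under 0.05. Of all 35543 transcripts tested, 37% were called higher in the embryos of exposed parents on both sides and 36.8% in those of exposed mothers, with 34.7% and 35.3% called lower, and the median of all was 0.01 in both. None of the set was called lower. The size of the rise depended on the scale. On mean TPM the set's median log2 ratios were 3.65 with exposed parents on both sides and 3.67 with exposed mothers. Those of all transcripts were then -0.42 and -0.47. The 2 comparisons share their egg libraries. With exposed parents on both sides, the smallest adjusted p of the set belonged to ENSDART00000043312.5, though its change was not the largest. ENSDART00000043312.5 had 41.5, 42.1, 45.5 and 45.3 TPM in BaP eggs and 698, 620, 629 and 561 TPM in embryos of exposed parents on both sides. On TMM-scaled counts, in a fit of all 24 libraries, its log2 fold change was 4.29 ± 0.08 (SE, edgeR adjusted p = 4.79e-20, n = 4 per group). Every embryo library was above every egg library there. In TPM, all 4 embryo libraries stood above all 4 BaP egg libraries for 124 of the set in each comparison, against 28.6% of all transcripts with exposed parents on both sides and 28.1% with exposed mothers.

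The exception was ENSDART00000183657.1, at log2 fold changes of 3.00 ± 1.74 (SE; edgeR adjusted p = 0.127) and 2.52 ± 1.71 (edgeR adjusted p = 0.191). It had 4.39, 0, 103 and 0 TPM in control eggs and 271, 102, 168 and 503 TPM in control embryos. In mother-BaP embryos it had 0, 70.4, 124 and 61.0 TPM, and in embryos of exposed parents on both sides 249, 0, 43.2 and 86.3 TPM. Libraries at 0 occurred at both stages, and control egg replicate 3 alone brought it past the egg limit.

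The ratios were somewhat smaller in these libraries along the whole range. The set was chosen for high ratios in control libraries, and such a choice places ratios in other libraries lower. The ratio was lower than in controls for 95 of the 125: 58 of the 73 with M/E under 16, 21 of the 29 between 16 and 32, and 16 of the 23 above. On mean TPM, embryos of exposed parents on both sides over BaP eggs gave ratios from 3.46 to 169 with a median of 12.6, and 94 of the 125 were at 8 or more. With embryos of exposed mothers the median was 12.8 and 99 were at 8 or more. The same rule applied to the BaP eggs and the embryos of exposed parents on both sides took 116 transcripts, of which 90 were in the set, which is 72% of the set and 77.6% of the new list. Spearman's correlation of the 2 ratios over the 125 transcripts was 0.889, given as a description over transcripts from separate libraries of the same 2 stages. The transcript just inside the ratio limit, ENSDART00000052061.6, had a ratio of 5.18 in the BaP libraries, and the one just outside, ENSDART00000182243.1, had 7.31.

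**Figure D2:**
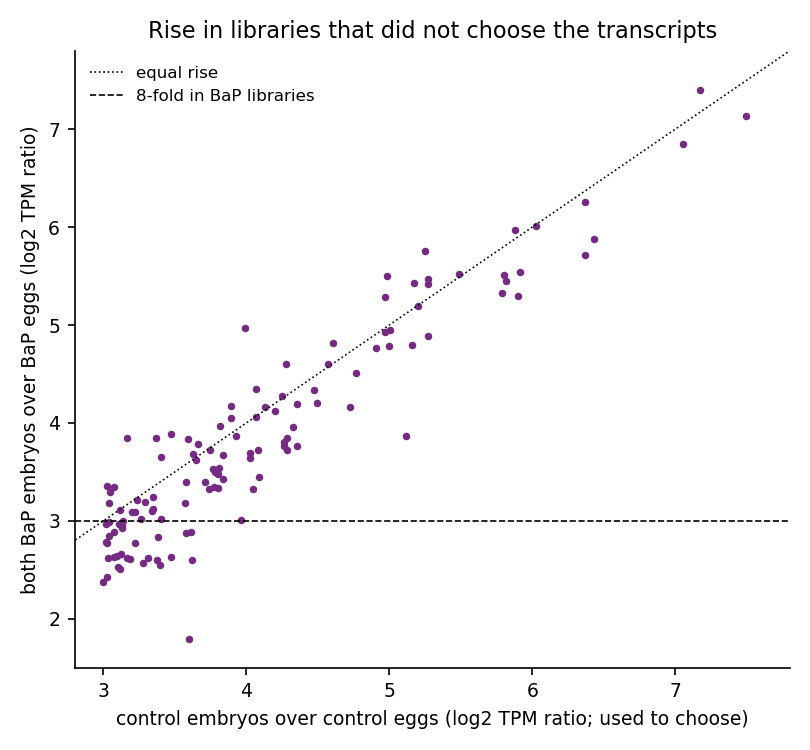
Log2 ratio of mean TPM, control embryos over control eggs (horizontal; the values that chose the set) against embryos of exposed parents on both sides over BaP eggs (vertical), 1 point per transcript. The points follow the dotted line of equal rise, and 94 of the 125 lie on or above the dashed line of an 8-fold ratio in the BaP libraries.

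As a group the 125 transcripts took 0.443% ± 0.0202 of all TPM in control eggs and 7.01% ± 0.202 in control embryos (SD, n = 4), which restates the rule. BaP eggs held 0.463% ± 0.0117. Embryos of exposed mothers held 6.86% ± 0.176, embryos of exposed fathers 6.98% ± 0.0857, and embryos of exposed parents on both sides 6.38% ± 0.461. In the last group the replicates stood at 6.73%, 5.76%, 6.73% and 6.30%, and replicate 2 was the lowest of the 16 embryo libraries. That library held the lowest value of its group for 78 of the 125 transcripts. All 4 libraries of that group lay below all 4 of the father-exposed embryos, whose lowest was 6.93%. A few transcripts carried much of these sums. ENSDART00000023156.7 alone made up 24.1% to 28.1% of the set's TPM in egg libraries and 13.1% to 15.4% in embryo libraries. The 10 of highest M made up 49.3% to 53.6% and 42.9% to 45.9%.

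**Figure D3:**
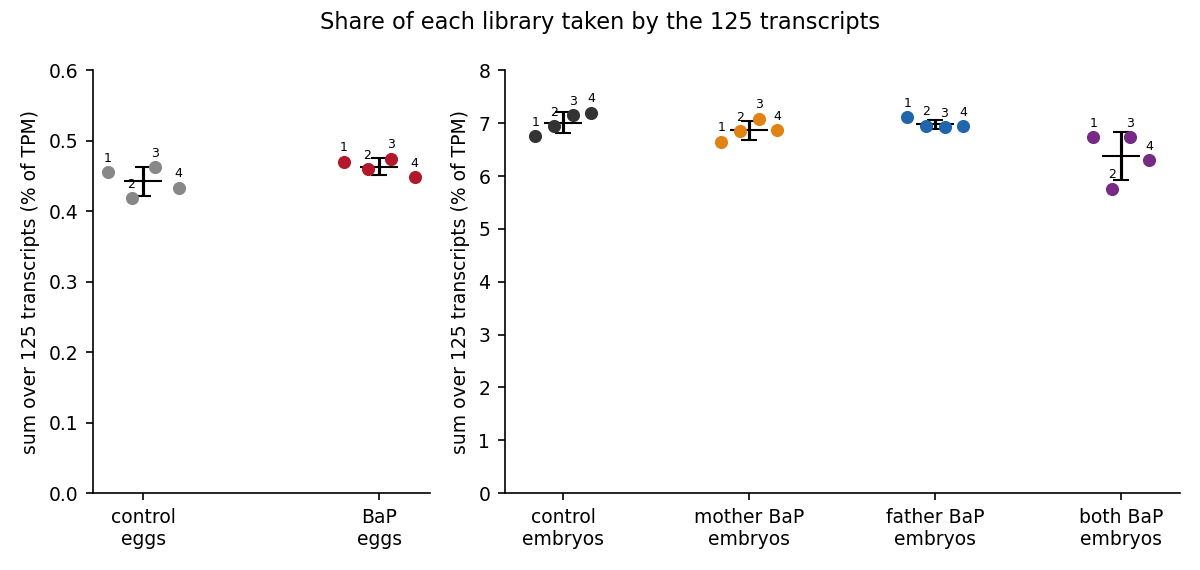
Percent of all TPM taken by the 125 transcripts in each library, eggs on the left and embryos on the right with separate vertical axes that start at 0. Points are libraries numbered by replicate, and bars give the mean and SD of 4. Egg libraries lie between 0.419% and 0.475%, and replicate 2 of the embryos of exposed parents on both sides is lowest among embryos at 5.76%.

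Within the embryo stage the set varied little between crosses. The highest of the 4 cross means was a median of 1.18 times the lowest, and this ratio was under 1.5 for 119 transcripts and over 2 for 3. The widest, at 4.09, was ENSDART00000183657.1, whose libraries at 0 are given above. The group with exposed parents on both sides had the lowest of the 4 means for 76 of the 125, and control or father-exposed embryos had the highest for 46 each. Control embryos chose the set by their high values, which places other groups lower, so counts against controls are read with that in mind.

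In eggs, none of the 125 was called between BaP-fed and control females by edgeR, as none of all 29023 transcripts was (background 0% in each direction). DESeq2, limma on log2(TPM + 1) and edgeR with library totals in place of TMM also called 0 of the 125. Among all transcripts, DESeq2 called 48 higher and 58 lower of the 35654 with an adjusted p, and the other settings named here called 0. At an unadjusted p under 0.05 edgeR counted 12 of the set, or 9.60%, and 1044 of all, or 3.60%. The set's median log2 fold change was 0.06 with 74 above 0. Low control values chose the set, which places other eggs higher. The smallest p belonged to ENSDART00000125198.3, with 69.8, 56.4, 41.0 and 51.8 TPM in BaP eggs and 36.3, 34.4, 31.4 and 26.3 TPM in control eggs. Its groups did not overlap, and its log2 fold change was 0.75 ± 0.19 (SE; edgeR adjusted p = 1.00). ENSDART00000154851.2 had 35.8, 43.9, 52.8 and 45.6 TPM in BaP eggs and 60.9, 54.3, 64.1 and 45.8 TPM in control eggs. Its BaP values overlapped the lowest control value, at -0.37 ± 0.14 (SE, log2; edgeR adjusted p = 1.00).

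A BaP-fed mother alone left the set near its control level in embryos. None of the 125 was called by edgeR (background 0% in each direction of 30894 transcripts), nor by DESeq2 or limma. Among all transcripts, DESeq2 called 53 higher and 37 lower of the 36881 with an adjusted p, and limma called 0. By edgeR, 7 of the set had an unadjusted p under 0.05, which is 5.60% of the set against 4.18% of all. The median log2 fold change was -0.03, and 122 transcripts lay within 0.5 of 0. ENSDART00000137707.3 had 203, 279, 250 and 279 TPM in mother-exposed embryos and 186, 165, 196 and 206 TPM in control embryos. Only replicate 1 of the mother-exposed libraries fell within the control range, and its log2 fold change was 0.43 ± 0.13 (SE; edgeR adjusted p = 1.00). ENSDART00000059732.5 had 472, 514, 506 and 589 TPM with exposed mothers and 621, 611, 609 and 576 TPM in controls, at -0.19 ± 0.08 (SE; edgeR adjusted p = 1.00).

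A BaP-fed father alone was followed by a single edgeR call in the set, where 0.414% of all 30894 transcripts were called lower and 0.00971% higher. ENSDART00000182735.1, of 2410 bases, had 56.1, 56.8, 78.4 and 57.4 TPM in father-exposed embryos and 91.0, 115, 107 and 122 TPM in control embryos. All 4 father-exposed libraries lay below all controls, and the log2 fold change was -0.69 ± 0.12 (SE, edgeR adjusted p = 0.0188). High control embryo values chose this transcript, which places other embryos lower. Its means of 12.9 TPM in control eggs and 109 TPM in control embryos lay near the ratio limit. Leaving out control library 2 or 4, or father library 1 or 2, ended the call, with edgeR adjusted p from 0.0583 to 0.0814, and in a fit of the compared groups alone (edgeR adjusted p = 0.0519). ENSDART00000137707.3 came closest to a call in the other direction, at 264, 246, 261 and 259 TPM against the control values above. Its groups did not overlap, at 0.58 ± 0.13 (SE, log2; edgeR adjusted p = 0.0727).

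Other settings gave calls in the higher direction as well. DESeq2 called 4 of the set higher and 2 lower, against 0.657% and 2.05% of the 30432 transcripts to which it gave an adjusted p, with ENSDART00000137707.3 and ENSDART00000109720.3 among the higher (DESeq2 adjusted p = 0.00323 and 0.0209). In a fit of father-exposed and control embryos alone, the single call was ENSDART00000128108.3, higher by 0.77 ± 0.11 (SE, log2, edgeR adjusted p = 0.0406). Of all 27949 transcripts in that fit, 20 were called higher and 37 lower. Without father replicate 3, ENSDART00000041385.5 was called higher at 0.45 ± 0.09 (SE, log2, edgeR adjusted p = 0.0372) beside the lower call. There 14 of all 31828 transcripts were called higher and 175 lower. The calls named here were looked up after their values were seen.

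The direction of the whole set against controls depended on the scale in father-exposed embryos. On TMM-scaled counts the median log2 fold change was 0.09 with 98 of 125 above 0, and on mean TPM the median was -0.02 with 56 above 0. The median of all transcripts moved likewise, from 0.01 to -0.10, and relative to it the set stood 0.08 higher on either scale. Over the 20269 transcripts above a low TPM limit, the median on mean TPM was -0.06, closer to that of the set.

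With exposed parents on both sides, most of the set lay slightly below controls without a call. EdgeR called 0 of the 125 (background 0% lower and 0.00324% higher), with 41 at an unadjusted p under 0.05, which is 32.8% of the set against 10.4% of all. DESeq2 called 11 of the set lower and 0 higher, against 0.599% and 0.427% of the transcripts with an adjusted p. Limma called 0 of the set, and 3 higher and 0 lower of all 30894. The median log2 fold change was -0.17 and 102 lay below 0, against a median of 0.03 for all. High control values chose the set, which places other embryos lower. ENSDART00000043312.5 had the smallest p, at 698, 620, 629 and 561 TPM against 771, 786, 725 and 699 TPM in controls. Its highest exposed library lay just under the lowest control, and its log2 fold change was -0.30 ± 0.07 (SE; edgeR adjusted p = 0.332). ENSDART00000109720.3, of 348 bases, was higher at 922, 1052, 1117 and 950 TPM against 756, 819, 872 and 826 TPM, without overlap, at 0.29 ± 0.12 (SE; edgeR adjusted p = 0.441).

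Crosses that had no part in choosing the set were compared among themselves, and the set moved most between embryos of exposed parents on both sides and embryos of exposed fathers alone. The fit took its estimate of spread from all 16 embryo libraries, control embryos included. EdgeR called 30 of the 125 lower and 2 higher with the mother also exposed, which is 24% and 1.60% of the set, where 2.08% and 3.16% of all 30894 transcripts were called. The set's median log2 fold change was -0.25 with 17 above 0, and the median of all was 0.03 with 53.0% above 0. The differences were small: the 30 had a median of -0.40 and 21 of them lay within 0.5 of 0, with a median SE of 0.11 over the set. In TPM, 12 of the set did not overlap in the lower direction and 5 in the higher, against 1.16% and 11.4% of all.

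The number of calls in that comparison depended on the scaling, on which groups shared the fit and on single libraries. With library totals in place of TMM the calls were 7 lower and 5 higher, against 0.418% and 6.16% of all. With limma on log2(TPM + 1) they were 4 and 4, against 0.282% and 5.72% of all. In a fit of the compared groups alone they were 3 lower and 1 higher, against 0.127% and 0.727% of all. They fell to 10 lower and 1 higher without father replicate 1 (0.857% and 1.56% of all) and likewise without replicate 4 of the embryos of exposed parents on both sides (0.734% and 1.57% of all). With library totals and with limma the median of all transcripts was 0.18 and 0.10, the set's median was -0.10 and -0.09, and 36 and 32 of the set were above 0. Relative to the median of all, the set lay 0.28 lower on TMM-scaled counts and 0.26 lower on mean TPM. On mean TPM the median was 0.17 for all, 0.11 for the 20275 above a low TPM limit and -0.09 for the set. All 30 transcripts stayed below 0 in every setting tried, and 7 of them were still called with library totals and 4 with limma.

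**Figure D4:**
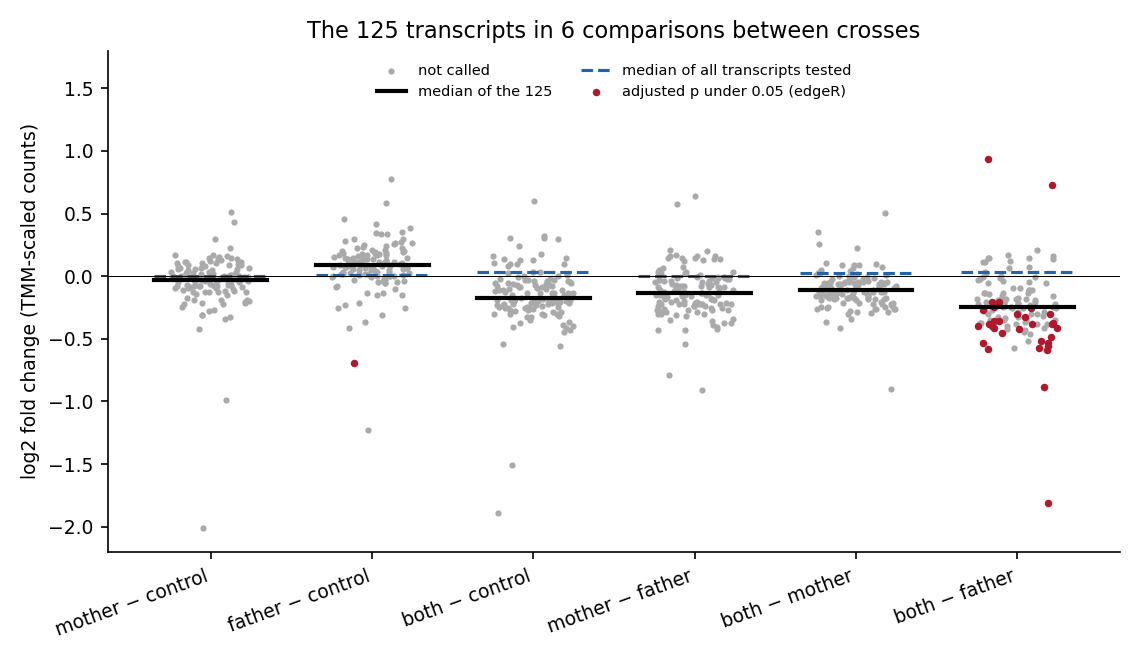
Log2 fold change of TMM-scaled counts for each of the 125 transcripts (points) in 6 comparisons between crosses, with the median of the set (black) and of all transcripts tested (dashed blue). Red points had an edgeR adjusted p under 0.05; they number 1 for father-exposed against control embryos and 32 for exposed parents on both sides against the father alone, where the set's median is -0.25 on this scale, and none elsewhere.

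ENSDART00000129924.4 illustrates the lower group. It had 246, 193, 263 and 203 TPM in embryos of exposed parents on both sides and 325, 296, 271 and 340 TPM in father-exposed embryos. The groups did not overlap, and the value of -0.59 ± 0.11 (SE, log2; edgeR adjusted p = 0.00991) was called without each of the 8 libraries in turn but not in a fit of those groups alone (edgeR adjusted p = 0.0613). Control embryos, at 251, 233, 256 and 303 TPM, and mother-exposed embryos, at 279, 212, 267 and 268 TPM, lay across both ranges.

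ENSDART00000053797.5 had a larger difference and a wider spread, at 147, 188, 228 and 121 TPM against 258, 268, 252 and 381 TPM. These groups did not overlap either, and the log2 fold change was -0.88 ± 0.20 (SE; edgeR adjusted p = 0.0224). The call was lost without replicate 1 or 4 of the embryos of exposed parents on both sides or father replicate 4, with edgeR adjusted p from 0.0679 to 0.0805, and in a fit of those groups alone (edgeR adjusted p = 0.0843). ENSDART00000052512.5, chosen after its values were seen because its value was the most negative, stood at -1.81 ± 0.45 (SE, log2; edgeR adjusted p = 0.033). Its values of 82.7, 78.0, 209 and 90.0 TPM overlapped the father-exposed values of 275, 301, 180 and 625 TPM.

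The 2 higher transcripts were ENSDART00000182735.1 and ENSDART00000135556.4. ENSDART00000182735.1 had 137, 96.0, 139 and 131 TPM with exposed parents on both sides, all above its 4 father-exposed values given earlier, at 0.94 ± 0.12 (SE, log2; edgeR adjusted p = 0.000925). This call held without each of the 8 libraries in turn. ENSDART00000135556.4, of 5581 bases, had 90.5, 101, 106 and 89.6 TPM against 47.2, 70.4, 54.2 and 41.1 TPM. Its groups did not overlap, but its value of 0.73 ± 0.20 (SE, log2; edgeR adjusted p = 0.0481) was called in 1 of the 8 fits with a library left out, and the edgeR adjusted p in the other 7 ran from 0.0849 to 0.142.

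**Figure D5:**
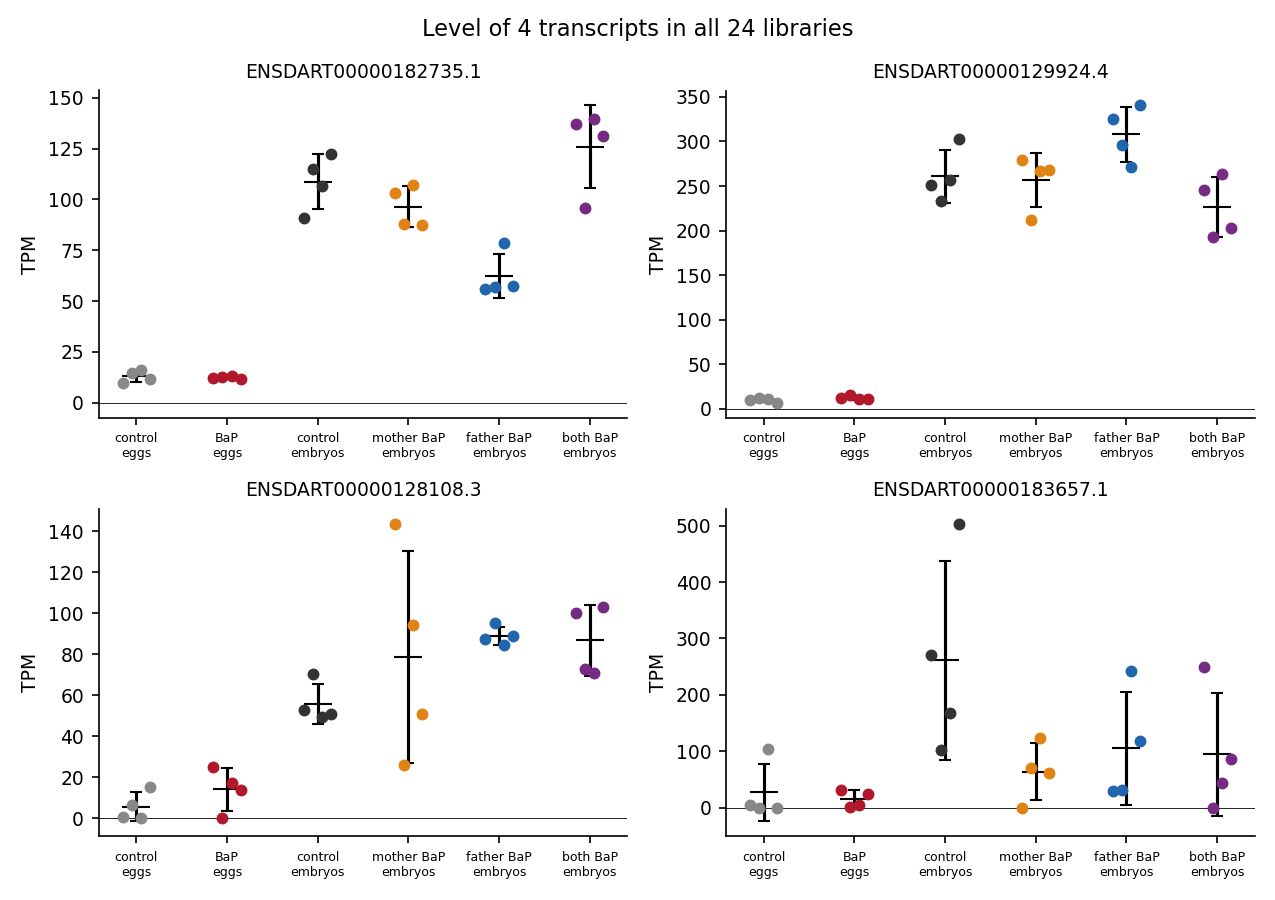
TPM in all 24 libraries of 4 transcripts, with the mean and SD of 4 libraries per group; SD bars that pass below 0 reflect the spread, and no value is below 0. ENSDART00000182735.1 is lowest among embryos in the father-exposed group, ENSDART00000129924.4 is lower with exposed parents on both sides than with an exposed father alone, and ENSDART00000128108.3 and ENSDART00000183657.1 vary widely between libraries.

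The 30 lower transcripts were chosen by this comparison, so their order among the crosses restates the call. They were more abundant than the 93 uncalled members, with a median M of 395 against 211 TPM and a median E of 25.2 against 10.5 TPM. Their median length of 1486 bases was close to that of the uncalled members, 1551. Over the whole set the log2 fold change in this comparison followed length: the median was -0.33 for the 34 transcripts under 1000 bases, -0.26 for the 46 between 1000 and 2000, -0.20 for the 37 between 2000 and 5000, and 0.01 for the 8 of at least 5000 bases. None of the 34 shortest was above 0, and 4 of the 8 longest were. Against control embryos the father-exposed group showed the same order in the other direction, from a median of 0.15 for the shortest to -0.14 for the longest. Mother-exposed against father-exposed embryos ran from a median of -0.21 for the shortest to 0.14 for the longest. Exposed parents on both sides gave no steady order against controls (-0.20, -0.13, -0.14 and -0.13) or against exposed mothers (-0.13, -0.10, -0.13 and -0.11). Length bands were not taken over all transcripts, so the order cannot be called particular to the set. The part of length in the calls was not tested.

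Exposure of the mother against exposure of the father gave no call in the set (background 0% lower and 0.00324% higher; 29 at an unadjusted p under 0.05, or 23.2% against 10.6% of all), at a median of -0.13. On TMM-scaled counts 24 of the set lay above 0, and on mean TPM 54 did, at a median of -0.03. Relative to the median of all transcripts, the set stood at -0.13 on TMM-scaled counts and -0.12 on mean TPM. On mean TPM the median was 0.09 for all and 0.06 for the 20268 above a low TPM limit. DESeq2 called 1 higher and 2 lower, against 1.19% and 0.49% of the transcripts with an adjusted p. Limma called 0 of the set, and 0 higher and 1 lower of all 30894. ENSDART00000182735.1 had 103, 87.9, 107 and 87.5 TPM with the exposed mother, all above the father-exposed values, at 0.58 ± 0.12 (SE; edgeR adjusted p = 0.102). ENSDART00000136649.4 had 108, 123, 118 and 120 TPM against 137, 128, 148 and 134 TPM, without overlap, at -0.30 ± 0.07 (SE; edgeR adjusted p = 0.128). Exposed parents on both sides against the mother alone gave no call in the set by edgeR, DESeq2 or limma, at a median of -0.11. The edgeR background was 0% in each direction. Among all transcripts, DESeq2 called 54 higher and 60 lower of the 35036 with an adjusted p, and limma called 2 higher and 0 lower of 30894. By edgeR, 21 of the set had an unadjusted p under 0.05, or 16.8% against 6.61% of all. The smallest p were those of ENSDART00000125198.3, at -0.28 ± 0.08, and ENSDART00000182735.1, at 0.36 ± 0.12 (SE; edgeR adjusted p = 0.709 for each).

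The test of whether the mother's exposure acted differently with an exposed than with a control father called 1 transcript of the set positive. That is 0.8% of the set, close to the 0.822% of all called positive, with 0.0777% of all called negative. ENSDART00000182735.1 had an interaction of 1.05 ± 0.17 on the log2 scale (SE; edgeR adjusted p = 0.0102), called without each of the 16 libraries in turn. Its mother-exposed embryos lay at -0.11 ± 0.12 against controls and its embryos of exposed parents on both sides at 0.94 ± 0.12 against father-exposed embryos. ENSDART00000137707.3 had the smallest p among negative values, at -0.71 ± 0.19 (SE; edgeR adjusted p = 0.105). DESeq2 called 1 of the set positive and 8 negative, against 2.49% and 1.15% of the transcripts with an adjusted p. The set's median interaction was -0.20 and that of all 30894 transcripts 0.01, with control embryos, which chose the set, among the 4 groups.

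Transcripts that moved the opposite way were set beside these values. Low control embryo values chose them, which places other embryos higher. The 3127 transcripts with E of at least 5 TPM that were at least 8-fold lower in control embryos took 0.671% ± 0.0358 of TPM in control embryos, 0.707% ± 0.0375 with exposed mothers, 0.811% ± 0.0916 with exposed fathers and 0.868% ± 0.282 with exposed parents on both sides (SD, n = 4). In the last group replicate 2 held 1.29% and the others 0.721%, 0.790% and 0.676%. The library lowest in the 125 rising transcripts was therefore highest among the 16 embryo libraries in the falling ones. Without it, 15 of the 125 were called lower and 1 higher against father-exposed embryos, where 1.4% and 3.05% of all were called, at a median of -0.20, and its part in the result beyond these values was not tested.

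Length and counting separated the set little from other stored transcripts. Its lengths ran from 326 to 9581 bases with a median of 1558, against 1867 for all with E of at least 5 TPM. Transcripts under 1000 bases made up 27.2% of the set and 22.5% of the stored transcripts, and those of at least 5000 bases 6.40% and 8.83%. Of the 125, 22 (17.6%) had whole estimated counts in all 24 libraries, as did 19.1% of the stored transcripts. The others share reads with overlapping or similar transcripts, which Salmon divides by estimate, so a level of a single transcript there can carry the division of reads. Among the 22, 5 were called lower in embryos of exposed parents on both sides against father-exposed embryos, and the median log2 fold change was -0.18.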

How the data were processed

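RNA-seq of 24 libraries in 6 groups was used, and 32 bisulfite samples were not analysed here. Per the submitters' processing notes, the authors used FastQC, Salmon and DESeq2 with build GRCz11 (tool versions not given in the sources used here). The deposited tables, per their file headers, hold an estimated count and a TPM for each of 57192 transcripts. The set was taken from the deposited TPM. The authors' estimated counts were rounded and tested with edgeR 4.0.16 (R 4.3.3, limma 3.58.1) after TMM scaling and filterByExpr, with glmQLFit (robust) and Benjamini-Hochberg adjustment over all transcripts tested. Eggs were fitted alone (8 libraries), crosses in 1 fit of 16, and the rise in 1 fit of 24. All 125 passed the filters. Code was tested on simulated data. There edgeR recovered 35 of 100 changes of 2-fold in the egg fit, with 7.63% of calls false. In the fit of crosses it recovered 58 of 100, with 0.649% false. Recovery at the levels of the 125 was not tested, so these rates give no size of change that could go uncalled in the set. The set's median SE on the log2 scale was 0.24 for BaP against control eggs. It was 0.11 for exposed parents on both sides against fathers, where the smallest change called lower was -0.21. A transcript without a call may still differ between groups. DESeq2 1.42.0 and other settings served as alternatives. Members, lists and tests were chosen with earlier results of these data known. Named transcripts were the 2 of highest M and of highest M/E, those beside each limit, and per comparison at most 2 called per direction by largest change without overlap, or else that of smallest p. For the rise in the BaP libraries, the transcript of smallest p with exposed parents on both sides was shown instead. Gene lists, stage markers and promoter motifs need gene symbols and were not applied. Depth is given as library totals, and low egg counts limit the precision of egg values.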

Additional observations from a re-analysis of the deposited data

Results flagged for a closer look

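In groups of 4 libraries, 7 of 108 groups of values held a library far from the other 3, measured as its gap to the nearest library over the group's range. Chance gives about 1 in 20. The count cannot be set against that rate, since ENSDART00000183657.1 and ENSDART00000128108.3 were chosen after their values were seen. The set's share of TPM in father-exposed embryos had a gap of 0.874 of the range, with replicate 1 at 7.11% above the others. ENSDART00000023156.7 had a gap of 0.901 in BaP eggs, with replicate 4 low at 1084 TPM. In father-exposed embryos ENSDART00000125198.3 had a gap of 0.941 (replicate 4 low at 318 TPM), ENSDART00000182735.1 one of 0.943 (replicate 3 high at 78.4 TPM) and ENSDART00000053797.5 one of 0.876 (replicate 4 high at 381 TPM). ENSDART00000183657.1 had a gap of 0.958 in control eggs (replicate 3 high at 103 TPM) and ENSDART00000128108.3 one of 0.839 in control embryos (replicate 2 high at 70.4 TPM).

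The difference in ENSDART00000182735.1 between crosses with an exposed and a control mother was not the same with a control as with an exposed father. The interaction was 1.05 on the log2 scale (edgeR adjusted p = 0.0102). It was 1 positive call in the set, or 0.8%, close to the 0.822% of all transcripts called positive. High control embryo values chose the set, and they raise this interaction. The labels do not tie its libraries to tanks or spawnings.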

How the results depend on the processing

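No called value changed sign. The set's median in fathers against controls, which no test called, went from 0.09 to -0.01 with limma on log2(TPM + 1). The rise in the BaP libraries was called for 124 of 125 transcripts in every setting tried. Raising the egg limit to 10 TPM left 76 transcripts, and raising the ratio limit to 12 left 77; leaving out a control library kept 107 to 123 of the 125. For exposed parents on both sides against fathers, the 32 calls became 19 without a low-count filter (18 lower, 1 higher), where 407 of all 49727 transcripts were called lower and 659 higher. With DESeq2 they became 51 (49 lower, 2 higher), where 1409 of the 30432 with an adjusted p were called lower and 1643 higher. A fit of those groups alone gave 4. In settings chosen after seeing the data, library totals gave 12 and limma on log2(TPM + 1) gave 8. Shares of all for the fit of those groups alone, library totals and limma are given in the results. Father-exposed against control embryos gave 3 calls with library totals, all lower, where 327 of all 30894 transcripts were called lower and 5 higher. With DESeq2 it gave 6 (4 higher, 2 lower), and exposed parents on both sides against controls gave 11, all lower. Mother against father gave 1 with library totals and 3 with DESeq2, and the interaction 2 and 9 (with DESeq2 1 positive, 8 negative). With library totals, 67 of all 30894 transcripts were called higher and 3 lower for mother against father. For the interaction 497 of all were called positive and 6 negative. The cause of these shifts was not tested. Leaving out a library in turn gave 11 to 28 calls for exposed parents on both sides against fathers. It gave 0 to 2 for fathers against controls, 0 to 1 for mother against father and 1 to 2 for the interaction. The lowest values, 11, came without father replicate 1 and without replicate 4 of the embryos of exposed parents on both sides. Their shares of all are given in the results. The 28 came without replicate 3 of that group (679 of all 31753 lower, 819 higher). Fathers against controls gave 2 without father replicate 3 (175 of all 31828 lower, 14 higher). Mother against father gave its 1 there too (2 lower, 16 higher of all). The interaction gave 2 without replicate 3 or 4 of embryos of exposed parents on both sides (107 and 110 of all positive, 21 and 12 negative). Replicate numbers were not taken as pairs, since in no pair of groups were all 4 correlations of deviations between same-numbered libraries over 0.1; they ran from -0.123 to 0.234. The closest were BaP eggs with mother-exposed embryos (0.173, 0.151, 0.123 and -0.081) and mother-exposed embryos with those of exposed parents on both sides (0.038, 0.106, 0.234 and 0.127). In each, 3 of 4 libraries correlated best with their own number, a hint from the data and not the design. The same count held for BaP eggs with embryos of exposed parents on both sides (0.116, 0.086, 0.057 and -0.033) and with father-exposed embryos (0.015, 0.013, 0.042 and 0.077). With a replicate block, 25 of the set were called for exposed parents on both sides against fathers (23 lower, 2 higher), where 558 of all 30894 were called lower and 806 higher. It gave 1 call for fathers against controls (68 lower and 1 higher of all) and 1 for the interaction (134 positive and 10 negative of all). The other cross and egg comparisons gave 0 in the set. Of the medians over the set, 140 values stayed within the spread and 16 did not; of single transcripts, 254 kept their call status, 20 lost a call and 8 gained one. Low egg values limit the ratios, since 49 of the set had E under 10 TPM.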

Other observations

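ENSDART00000128108.3, chosen after its values were seen, had whole estimated counts in all 24 libraries. It had 0.489, 6.33, 0.388 and 15.3 TPM in control eggs and 25.2, 0.174, 17.1 and 13.8 TPM in BaP eggs. Each egg group thus held libraries near 0 beside libraries well above the egg limit. Mother-exposed embryos had 144, 25.9, 94.4 and 51.0 TPM, while father-exposed embryos stayed between 84.6 and 95.2 TPM. Apart from a fit of father-exposed and control embryos alone, given in the report, it was called in the rise from egg to embryo (log2 fold change 3.06 ± 0.91, SE, edgeR adjusted p = 0.00494, with exposed parents on both sides, n = 4 per group).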
